A study of Homo sapiens with 6 samples.

Results

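Respiratory complex I (NADH:ubiquinone oxidoreductase) was examined through its nuclear genes, which were taken as all rows of the deposited table named NDUFA, NDUFAB, NDUFB, NDUFC, NDUFS, NDUFV or NDUFAF with a number, pseudogene names left out. The name rule gave 47 of the 60831 genes in the table. Of these, 37 encode structural subunits of the complex, 8 encode the assembly factors NDUFAF1 to NDUFAF8, and 2, NDUFA4 and NDUFA4L2, carry a complex I name although NDUFA4 is assigned to cytochrome c oxidase. The cells were PATU8988, a human pancreatic cancer line, in the groups shCLIC1 (stable lentiviral knockdown of CLIC1, a chloride intracellular channel protein) and shNC (the lentiviral control hairpin), with 3 libraries each. Both groups carried a vector with a green fluorescent protein and a puromycin resistance gene and had been kept under puromycin for 2 weeks. The labels do not say how many hairpins were used or whether a group's libraries came from separate infections. The p-values therefore cover library-to-library spread, which may be technical. The series title names the Warburg effect, a shift towards glycolysis even when oxygen is present.

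Complex I is the entry point of electrons from NADH into the mitochondrial respiratory chain. It is shaped like an L. The matrix arm oxidizes NADH and passes electrons through a flavin and a row of iron-sulfur clusters to ubiquinone, and the membrane arm pumps protons. A conserved core does the chemistry, accessory subunits surround and stabilize it, and assembly factors help to build it without remaining in the finished enzyme. The core of the membrane arm is encoded by mitochondrial DNA. Cells that rely on glycolysis often keep complex I, since it also returns NADH to NAD+ for the synthesis of aspartate and nucleotides.

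All 37 structural subunits carried the gene ontology term for the complex and the KEGG pathway of oxidative phosphorylation, and all 8 NDUFAF genes carried the term for complex I assembly. These terms do not separate the classes: all 37 structural subunits also carried the assembly term, NDUFAF1 carried the term for the complex, and NDUFA4 carried that term and the pathway. CLIC1 itself was at 219, 210 and 204 TPM in shCLIC1 libraries, against 313, 311 and 297 TPM in shNC libraries. TPM corrects reads for gene length and scales every library to the same total. Levels can thus be compared between genes, a change in abundant genes moves all others, and the sequencing depth is unknown. CLIC1 thus remained at 68.8% of the control level (log2 fold change -0.54, SE 0.0407, adjusted p = 0.00345 by limma), a partial knockdown. Without the mean-variance trend in the test its adjusted p was 0.0730. The epithelial markers EPCAM, KRT8, KRT18, KRT19 and CDH1 summed to between 11205 and 11681 TPM in shCLIC1 libraries, against 9433 to 9700 TPM in shNC libraries. EPCAM, KRT8, KRT18 and KRT19 were called higher (limma adjusted p from 0.0121 to 0.0220), whereas CDH1 was at 123 TPM in shCLIC1 and 136 TPM in shNC on average and did not pass (limma adjusted p = 0.354). Of 5 leukocyte markers 3 were listed at 0 in every library, PTPRC among them, and the list summed to between 6.93 and 7.13 TPM in shCLIC1 libraries, against 4.02 to 5.80 TPM in shNC libraries. Of 5 fibroblast markers 3 were listed at 0 throughout and the list summed to between 0.87 and 1.83 TPM in shCLIC1 libraries, against 1.68 to 1.99 TPM in shNC libraries. Of 4 pancreatic acinar markers only PRSS1 was above 0, at 4.04 to 4.99 TPM in shCLIC1 libraries, against 2.84 to 3.57 TPM in shNC libraries. Endothelial and endocrine lists stayed at or under 0.31 TPM in each library. The part of these differences in the results that follow was not tested.

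Among the complex I genes 1, the assembly factor NDUFAF8, rose in shCLIC1, and the other members tested did not pass. Of the 47 genes 46 reached the level needed for testing (a mean of at least 1 TPM over the 6 libraries), and NDUFA4L2 did not. Across the 46, 1 gene was higher and 0 were lower in shCLIC1 at an adjusted p under 0.05 (limma, Benjamini-Hochberg adjustment over all 14135 genes tested), which is 2.17% against 1.74% of all genes tested. Over all genes the share was 0.962% for higher and 0.778% for lower calls. At an unadjusted p under 0.05 there were 12 members, 26.1% against 15.6% of all genes tested. The 3 shCLIC1 and 3 shNC values did not overlap in 15 of the 46, 9 higher and 6 lower, or 32.6% against 22.3% of all genes (11.1% higher and 11.2% lower). The median log2 fold change was 0.01 over the 46 members and -0.00 over all genes tested, and the median absolute change was 0.0774 against 0.107.

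**Figure D1:**
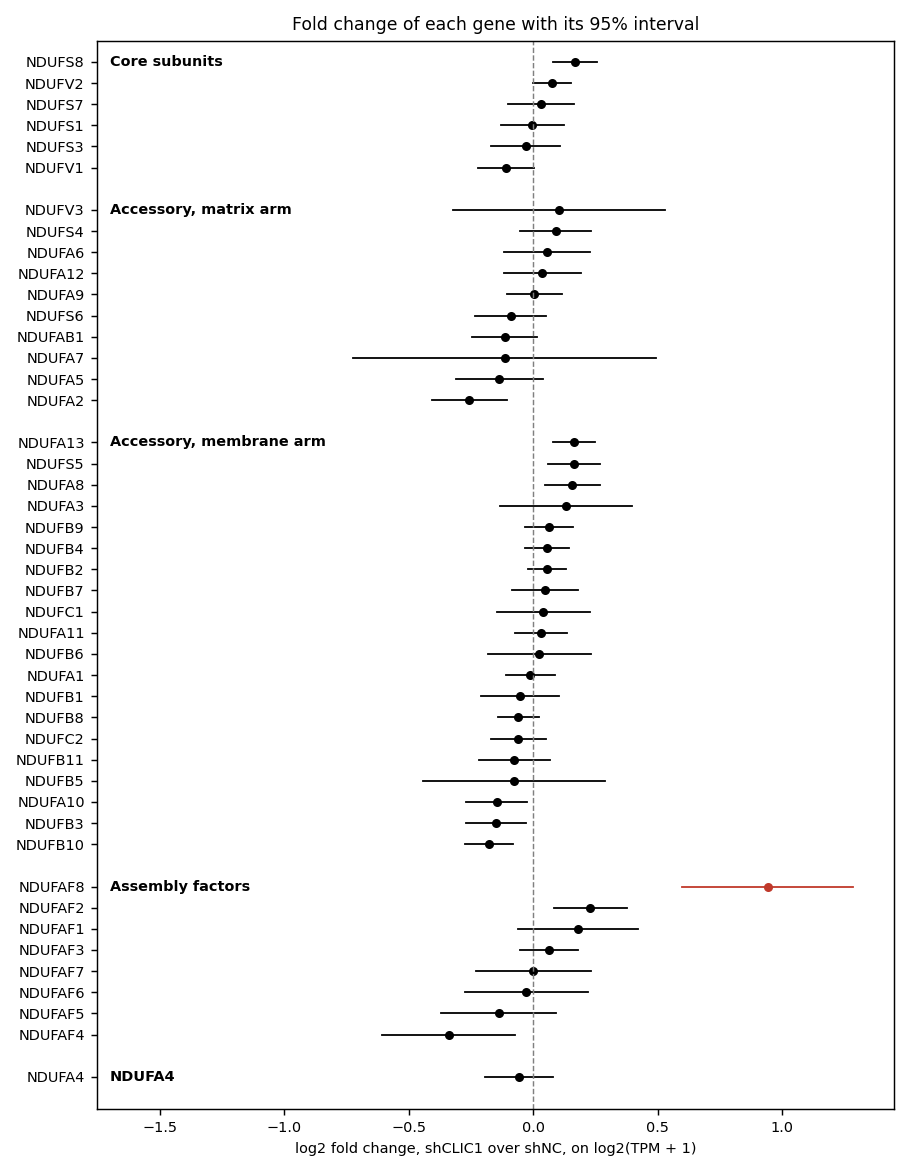
Log2 fold change of shCLIC1 over shNC (x axis, on log2(TPM + 1)) for the complex I genes tested, 1 of them not drawn, grouped by role, with points for the estimates and lines for the 95% intervals from limma. NDUFAF8, in red, stands at 0.94, while the 37 structural subunits lie between -0.26 and 0.17.

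Structural subunits and assembly factors were set side by side. Of 37 structural subunits 0 passed the test in either direction (limma adjusted p from 0.0799 to 0.987). Their log2 fold changes ran from -0.26 to 0.17 with a median of 0.02, 20 positive and 17 negative. Of 8 assembly factors 1 was higher and 0 were lower, with log2 fold changes from -0.34 to 0.94 and a median of 0.03, 5 positive and 3 negative. An unadjusted limma p under 0.05 was found for 9 of the 37 structural subunits and 3 of the 8 assembly factors. Over all genes tested it was found for 2207 of 14135, or 15.6%. The median absolute change was 0.0761 for structural subunits and 0.159 for assembly factors. Assembly factors are also expressed at lower levels, with a median of 22.0 TPM against 125 TPM for structural subunits, and their 95% intervals were wider, with a median half-width of 0.236 against 0.128 on the log2 scale. The intervals of 42 of the 46 genes lay within 0.5 of 0 on that scale, against 10069 of the 14135 genes tested. The median half-width was 0.135 over the members and 0.239 over all genes tested. The 4 member intervals that reached further belonged to NDUFAF8, NDUFAF4, NDUFA7 and NDUFV3.

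Summed over the 37 structural subunits the level was 5841, 5815 and 6063 TPM in shCLIC1 libraries, against 5849, 5868 and 5857 TPM in shNC libraries. The shNC libraries were almost equal, and shCLIC1 replicate 3 stood above all others while the remaining pair lay just below them. The 8 assembly factors summed to 356, 398 and 385 TPM in shCLIC1 libraries, against 305, 307 and 325 TPM in shNC libraries, so these groups did not overlap. The structural sum was 16.4, 14.6 and 15.7 times the assembly factor sum in shCLIC1 libraries, against 19.2, 19.1 and 18.0 times in shNC libraries. With NDUFAF8 left out the ratios were 22.3, 22.7 and 22.5 in shCLIC1 libraries, against 23.2, 24.2 and 22.3 in shNC libraries, and the groups overlapped.

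**Figure D2:**
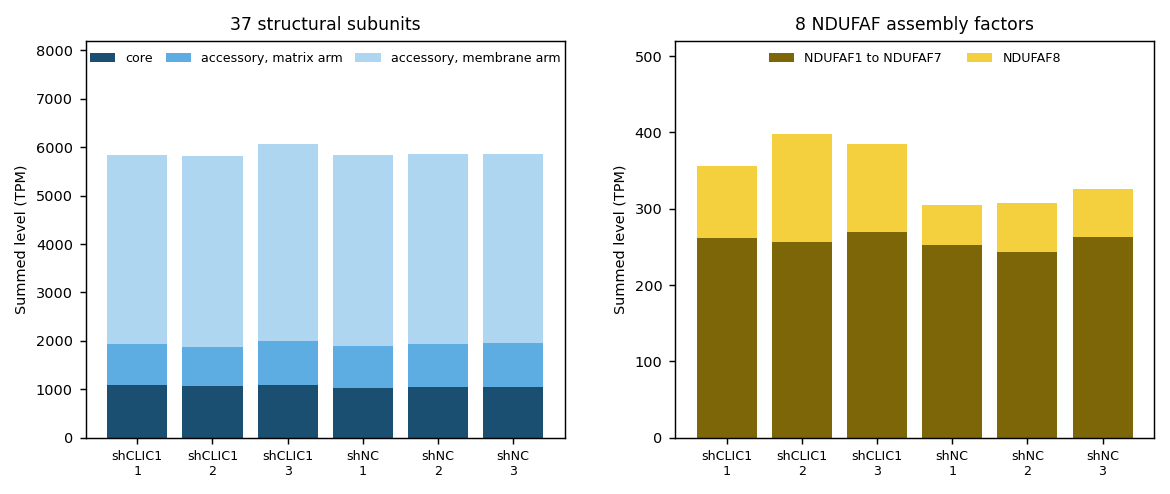
Summed level in TPM (y axes, starting at 0) of the structural subunits, stacked by position in the complex, and of the assembly factors, with NDUFAF8 stacked on the other 7, in each library (x axes). The structural bars are nearly level at 5815 to 6063 TPM, and the assembly factor bars are higher in shCLIC1 libraries (356 to 398 TPM) than in shNC libraries (305 to 325 TPM), chiefly in the NDUFAF8 segment.

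Among the assembly factors, NDUFAF8 is a small protein that binds and stabilizes NDUFAF5. NDUFAF5 in turn hydroxylates an arginine of the core subunit NDUFS7 early in assembly. NDUFAF8 (ENSG00000224877) lies on the plus strand of chromosome 17, 81239239 to 81241281 in GRCh38, and its exons share no position with another annotated gene. The gene length deposited with the TPM values is 365 bases, the shortest among the members, and how this bears on its level was not tested. NDUFAF8 was at 94.1, 142 and 116 TPM in shCLIC1 libraries, against 52.8, 64.1 and 63.1 TPM in shNC libraries. Every shCLIC1 library was above every shNC library, and the shCLIC1 libraries were the more spread out. The means were 117 ± 23.8 TPM in shCLIC1 and 60.0 ± 6.25 TPM in shNC (SD, n = 3 each), a log2 fold change of 0.94 (SE 0.146, 95% interval 0.60 to 1.28, limma adjusted p = 0.0287). Taken by itself in a two-sided exact permutation test, NDUFAF8 had p = 0.1, and a design of 3 against 3 cannot reach a smaller value. NDUFAF8 no longer passed with no filter on low values (adjusted p = 0.113), without the mean-variance trend (0.0993) and on leaving out shCLIC1 replicate 2 (log2 fold change 0.80, adjusted p = 0.0804), shCLIC1 replicate 3 (0.94, 0.0787), shNC replicate 1 (0.85, 0.150), shNC replicate 2 (0.99, 0.134) or shNC replicate 3 (0.98, 0.116). With 1 library left out the fold change stayed between 0.80 and 1.09.

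The binding partner of NDUFAF8 and the subunit they act on did not pass the test. NDUFAF5 was at 17.3, 15.7 and 17.3 TPM in shCLIC1 libraries, against 16.1, 19.4 and 20.4 TPM in shNC libraries, and the groups overlapped (log2 fold change -0.14, SE 0.0983, limma adjusted p = 0.554). NDUFS7, which binds the last iron-sulfur cluster before ubiquinone, was at 116, 120 and 133 TPM in shCLIC1 libraries, against 117, 120 and 123 TPM in shNC libraries. Its log2 fold change was 0.03 (95% interval -0.10 to 0.16, limma adjusted p = 0.848).

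The remaining assembly factors did not pass the test. NDUFAF4 binds early intermediates of the ubiquinone-reducing part together with NDUFAF3, and it had the most negative value of all members. It was at 21.6, 16.0 and 18.8 TPM in shCLIC1 libraries, against 23.8, 22.1 and 25.8 TPM in shNC libraries. Its groups did not overlap, and the log2 fold change was -0.34 (SE 0.114, limma adjusted p = 0.208). Its partner NDUFAF3 was at 119 ± 5.46 TPM in shCLIC1 and 114 ± 4.16 TPM in shNC (SD, n = 3 each; limma adjusted p = 0.600). NDUFAF2, a relative of the subunit NDUFA12 that acts when the NADH-oxidizing part is added, was at 60.8, 64.5 and 61.5 TPM in shCLIC1 libraries, against 52.7, 49.6 and 57.0 TPM in shNC libraries. These groups did not overlap either, with a log2 fold change of 0.23 (SE 0.0625, limma adjusted p = 0.136). NDUFAF1, a member of the mitochondrial complex I intermediate assembly complex, was at 24.1 ± 1.67 TPM in shCLIC1 and 21.3 ± 2.84 TPM in shNC (limma adjusted p = 0.461). NDUFAF7, a mitochondrial arginine methyltransferase, was at 11.7 ± 1.19 TPM in shCLIC1 and 11.7 ± 0.953 TPM in shNC. NDUFAF6, the least abundant assembly factor, was at 9.92 ± 0.990 TPM in shCLIC1 and 10.1 ± 0.963 TPM in shNC.

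**Figure D3:**
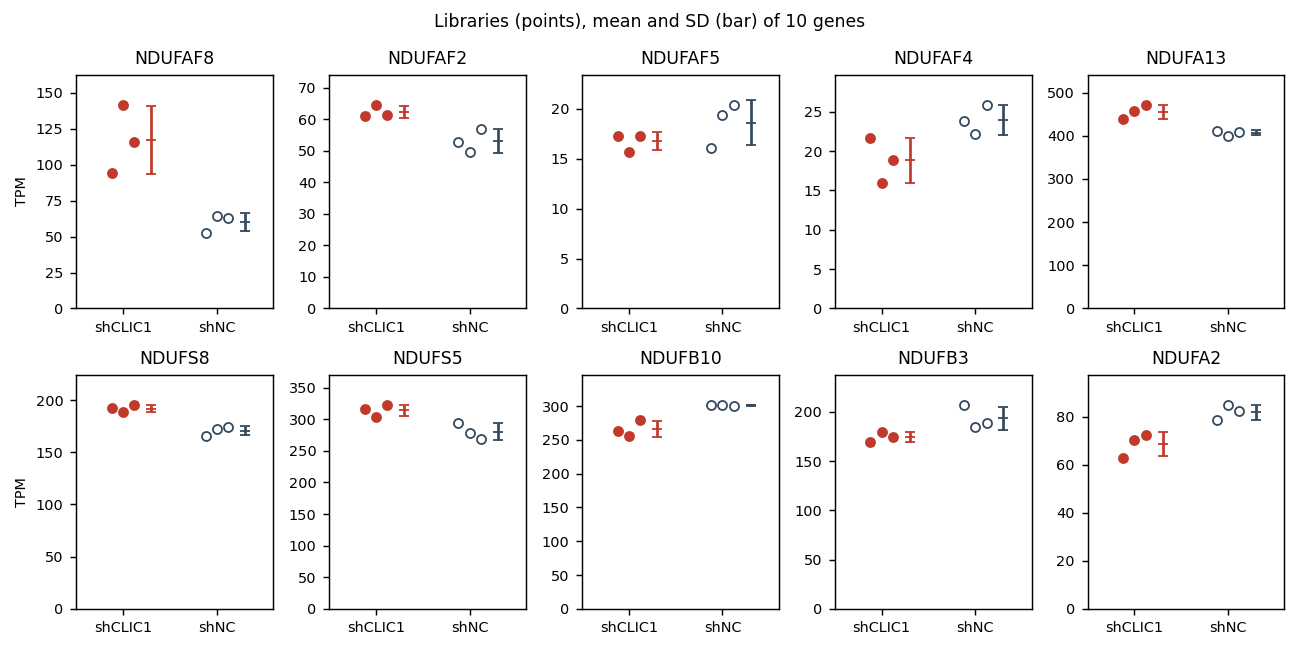
Level in TPM (y axes, starting at 0) of 10 complex I genes, with 1 point for each library and a bar for the mean and SD (n = 3) of shCLIC1, on the left, and shNC, on the right. NDUFAF8 shows the widest gap between groups (117 and 60.0 TPM on average), and in NDUFB10 the 3 shNC points coincide near 301 TPM.

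Of the 7 core subunits encoded in the nucleus, 0 passed the test, and their log2 fold changes ran from -0.11 to 0.17 with a median of 0.03. The most positive was NDUFS8, which carries a pair of iron-sulfur clusters in the chain that leads to ubiquinone. It was at 192, 188 and 195 TPM in shCLIC1 libraries, against 166, 173 and 174 TPM in shNC libraries. The groups did not overlap, and the log2 fold change was 0.17 (SE 0.0371, 95% interval 0.08 to 0.25, limma adjusted p = 0.0832).

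The subunits of the NADH-oxidizing end had values of both signs, none past the test. NDUFV1, which binds NADH and the flavin, was at 122, 118 and 122 TPM in shCLIC1 libraries, against 124, 137 and 130.1 TPM in shNC libraries. Its partner NDUFV2, an iron-sulfur protein and the most abundant core transcript, was at 375, 375 and 385 TPM in shCLIC1 libraries, against 367, 361 and 350 TPM in shNC libraries. Neither pair of groups overlapped, and the log2 fold changes were -0.11 for NDUFV1 (SE 0.0477, limma adjusted p = 0.333) and 0.07 for NDUFV2 (SE 0.0323, limma adjusted p = 0.326). NDUFS1, the largest iron-sulfur subunit, was at 69.0 ± 3.76 TPM in shCLIC1 and 69.1 ± 1.86 TPM in shNC (SD, n = 3 each). NDUFS3, a core protein of the ubiquinone-reducing part, was at 104, 97.2 and 107 TPM in shCLIC1 libraries, against 107, 98.0 and 109 TPM in shNC libraries. Its exons share positions with PTPMT1 on the same strand.

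**Figure D4:**
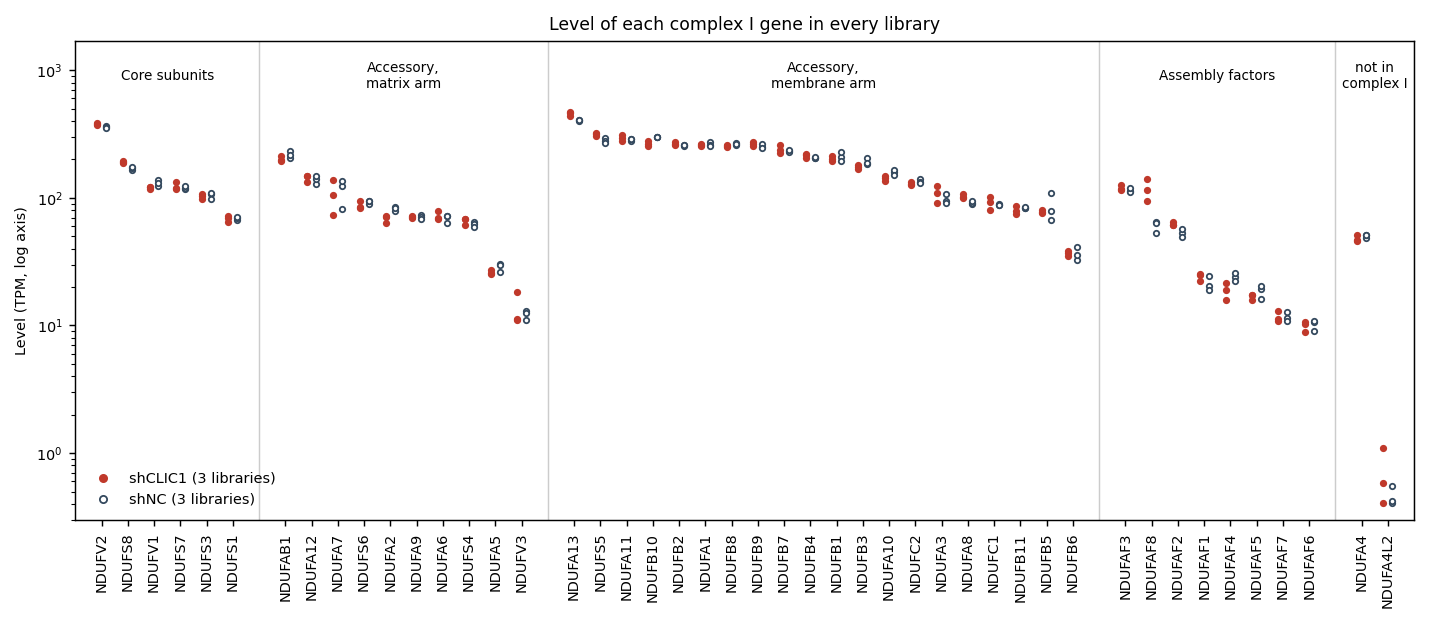
Level in TPM (y axis, logarithmic) of the complex I genes, 1 of them not drawn, in every library, ordered by mean level within each role, with shCLIC1 libraries as filled red points left of the open shNC points. Membrane arm subunits reach the highest levels (a median of 208 TPM), most assembly factors lie near 10 to 25 TPM, and NDUFA4L2 lies below 1.1 TPM.

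Accessory subunits of the matrix arm had 0 of 10 past the test, with a median log2 fold change of -0.04. The most negative was NDUFA2, a subunit with a thioredoxin-like fold. It was at 63.0, 70.4 and 72.3 TPM in shCLIC1 libraries, against 78.6, 84.8 and 82.6 TPM in shNC libraries. Every shCLIC1 library was below every shNC library, with a log2 fold change of -0.26 (SE 0.0641, 95% interval -0.41 to -0.11, limma adjusted p = 0.111). Its exons share positions with IK and TMCO6 on the opposite strand, and the labels do not say whether the libraries kept the strand. IK was at 79.1, 83.5 and 81.3 TPM in shCLIC1 libraries, against 86.6, 89.6 and 86.7 TPM in shNC libraries. TMCO6 was at 24.2, 17.6 and 17.7 TPM in shCLIC1 libraries, against 18.7, 16.3 and 15.4 TPM in shNC libraries. Whether reads of these genes entered the NDUFA2 values was not tested. NDUFAB1, the mitochondrial acyl carrier protein, which also serves fatty acid and lipoate synthesis, was at 201 ± 9.04 TPM in shCLIC1 and 218 ± 13.2 TPM in shNC (limma adjusted p = 0.378). NDUFS4 and NDUFS6 sit near the NADH-oxidizing end. They averaged 66.0 and 87.1 TPM in shCLIC1 libraries, against 62.0 and 92.6 TPM in shNC libraries.

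NDUFA7, NDUFB5 and NDUFV3 had the largest spread between libraries of 1 group, and they were picked out after their values were seen. NDUFA7 had SDs of 0.459 and 0.383 on the log2 scale in shCLIC1 and shNC, where the median SD over all genes tested was 0.105. It was at 106, 72.9 and 138 TPM in shCLIC1 libraries, against 81.6, 124 and 135 TPM in shNC libraries. NDUFA7 shares exons on the same strand with AC010323.1, an annotated protein-coding gene, which was at 41.7, 65.2 and 24.7 TPM in shCLIC1 libraries, against 59.8, 48.5 and 21.9 TPM in shNC libraries. The library lowest in NDUFA7 was the highest in AC010323.1 within both groups. The sum of both genes was 148, 138 and 163 TPM in shCLIC1 libraries, against 141, 172 and 157 TPM in shNC libraries, so that the level of NDUFA7 alone is uncertain. NDUFB5 was at 108 TPM in shNC replicate 3 and between 66.9 and 80.8 TPM in the 5 other libraries, and NDUFV3 was at 18.2 TPM in shCLIC1 replicate 1 and at most 12.9 TPM in the rest.

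**Figure D5:**
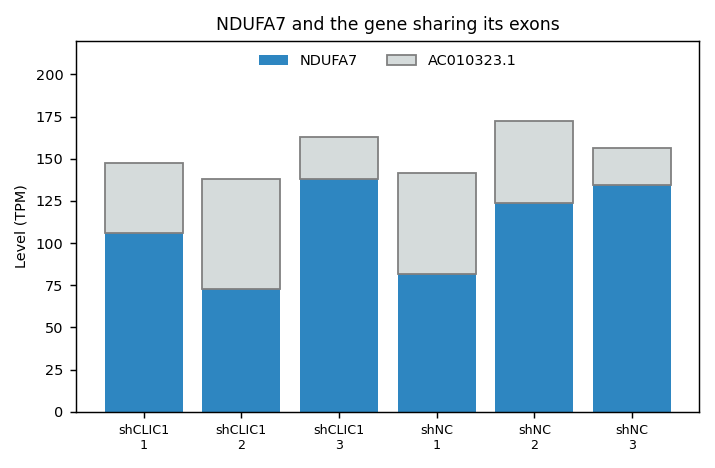
Level in TPM (y axis, starting at 0) of NDUFA7 (blue) with AC010323.1, which shares its exons, stacked on top (grey), in each library (x axis). NDUFA7 ranges from 72.9 to 138 TPM, while the stacked height ranges from 138 to 172 TPM.

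Accessory subunits of the membrane arm had 0 of 20 past the test, with a median log2 fold change of 0.03. NDUFA13, also known as GRIM-19 for its part in cell death induced by interferon and retinoic acid, was the most abundant member. It was at 439, 458 and 471 TPM in shCLIC1 libraries, against 411, 400 and 409 TPM in shNC libraries. The groups did not overlap, and the log2 fold change was 0.16 (SE 0.0356, 95% interval 0.08 to 0.25, limma adjusted p = 0.0799). NDUFS5 and NDUFA8 face the intermembrane space and hold disulfide bonds. NDUFS5 was at 316, 304 and 322 TPM in shCLIC1 libraries, against 295, 278 and 269 TPM in shNC libraries (log2 fold change 0.16, SE 0.0443, limma adjusted p = 0.135). NDUFA8, picked out after its values were seen, was at 101, 107 and 99.7 TPM in shCLIC1 libraries, against 89.7, 90.8 and 94.9 TPM in shNC libraries (limma adjusted p = 0.167).

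Another protein of that disulfide-bonded class had the opposite sign. NDUFB10 was at 263, 256 and 280.1 TPM in shCLIC1 libraries, against 301, 301 and 301 TPM in shNC libraries. All shCLIC1 libraries were lower, and the SD over shNC libraries was 0.312 TPM. The log2 fold change was -0.18 (SE 0.0407, 95% interval -0.27 to -0.08, limma adjusted p = 0.0877), and NDUFB10 passed as lower only without shCLIC1 replicate 3 among the settings tried (log2 fold change -0.21, adjusted p = 0.0425). NDUFB3, a small subunit at the far end of the membrane arm, was at 169, 179 and 174 TPM in shCLIC1 libraries, against 207, 185 and 188 TPM in shNC libraries (log2 fold change -0.15, SE 0.0514, limma adjusted p = 0.220). The other subunits of this arm had limma adjusted p-values from 0.227 to 0.929. The lowest was that of NDUFA10 (log2 fold change -0.15), whose groups did not overlap.

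Neither NDUFA4 nor NDUFA4L2 was called. NDUFA4 was at 48.1 ± 2.80 TPM in shCLIC1 and 50.1 ± 1.33 TPM in shNC (SD, n = 3 each; log2 fold change -0.06, limma adjusted p = 0.679). NDUFA4L2, a relative of NDUFA4 known to be induced by hypoxia, was at 0.58, 0.41 and 1.09 TPM in shCLIC1 libraries, against 0.55, 0.41 and 0.42 TPM in shNC libraries, and was too low for the test.

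Other genes of complex I were taken from 3 further lists. The 7 subunits encoded by mitochondrial DNA had 0 past the test, with a median log2 fold change of -0.01. The change furthest up was that of MT-ND6, at 4671, 4905 and 5163 TPM in shCLIC1 libraries, against 4565, 4539 and 4415 TPM in shNC libraries (log2 fold change 0.12, SE 0.0371, limma adjusted p = 0.168). MT-ND6 alone among these genes is encoded on the light strand of mitochondrial DNA. MT-ND4L was furthest down (-0.06, limma adjusted p = 0.735), and without shCLIC1 replicate 3 its log2 fold change was 0.01. Of 12 assembly genes without an NDUFAF name 0 passed, with log2 fold changes from -0.18 in TMEM186 (limma adjusted p = 0.437) to 0.20 in NUBPL (limma adjusted p = 0.413), which delivers iron-sulfur clusters to complex I. NUBPL was at 5.17, 6.39 and 5.82 TPM in shCLIC1 libraries, against 4.85, 4.72 and 5.11 TPM in shNC libraries.

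The third list held 10 matrix proteases and regulators of respiratory gene expression, of which 9 were tested and 0 passed. GABPA, the DNA-binding subunit of an ETS-type factor that controls many respiratory genes, was furthest down. It was at 10.2, 10.3 and 8.61 TPM in shCLIC1 libraries, against 12.6, 11.2 and 13.3 TPM in shNC libraries (log2 fold change -0.32, SE 0.101, limma adjusted p = 0.183). ESRRA, an orphan nuclear receptor of energy metabolism, was furthest up (0.13, SE 0.0822, limma adjusted p = 0.522). The coactivator PPARGC1A was under the level filter.

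Sequence features were examined for what the genes share beyond their names. RefSeq promoters (250 bases before to 50 after a gene start, GRCh38.p14) matched 39 of the 47 by symbol, and were searched on both strands. A gene counted when any of its promoters held the motif. The YY1 and NRF1 letters were settled after an earlier search with longer forms, so the shares that follow are descriptions. The YY1 motif core AAGATGGC stood in 8 of the 39 (20.5%). The share was 6.68% of 9777 genes tested that had a promoter and 3.52% of all 27305 gene symbols with one. The ETS motif CCGGAAG stood in 7 of the 39 (17.9%), against 23.1% of the genes tested and 12.2% of all. The NRF1 motif core CGCATGCG stood in 6 of the 39 (15.4%), against 4.73% of the genes tested and 2.46% of all. Among the 39 members searched, only NDUFAF8 held both a YY1 and an ETS motif. Since it was the 1 gene called, its window is shown, with the motifs in capitals (chr17:81239309-81239334, plus strand). The stretch spans 2 starts that RefSeq gives for NDUFAF8, 81239311 and 81239318, which lie 72 and 79 bases downstream of the GENCODE gene start given above.
NDUFAF8 promoter: CCGGAAGaggacggacctAAGATGGC
The pair of motifs does not overlap there. The other members with the ETS motif had log2 fold changes from -0.34 in NDUFAF4 to 0.16 in NDUFA13, and none of them passed the test. Whether the motifs bear on these levels was not tested.

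The 7 bases GTGCTGA came from an earlier scan of 3′ UTRs in these data, so the counts that follow are a description and support nothing. They stood in at least 1 protein-coding transcript (GENCODE release 29, GRCh38) of 7 of the 46 members tested, or 15.2%, against 14.8% of the 11638 genes tested that had a 3′ UTR. The genes were NDUFA2, NDUFA10, NDUFAF5, NDUFS6, NDUFB5, NDUFS3 and NDUFS1. The sites of the 3 most negative structural subunits of this set are shown, with the 7 bases in capitals.
NDUFA2 (chr5:140645633-140645639, minus strand): caacttcaGTGCTGAtcaggtaa
NDUFA10 (chr2:239959134-239959140, minus strand): aatttgtaGTGCTGAggacattc
NDUFS6 (chr5:1816016-1816022, plus strand): tattcctgGTGCTGAataaaggg
All 7 had negative log2 fold changes with all libraries, from -0.26 in NDUFA2 to -0.00 in NDUFS1, although NDUFS1 turned positive under 4 settings (mitochondrially encoded genes taken out, and without shCLIC1 replicate 3, shNC replicate 2 or shNC replicate 3), NDUFS3 under 1 (without shCLIC1 replicate 2) and NDUFB5 under 1. Without shNC replicate 3, the library in which NDUFB5 was highest, its log2 fold change was 0.11. Their median was -0.09, against 0.04 for the 39 members without the letters, and over all genes the medians were -0.06 with and 0.00 without them. None of the 7 passed the test. NDUFB10, NDUFB3 and NDUFAF4, which were among the most negative members, did not hold the letters.

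Positions shared with other genes limit what single values mean. Of the 47 members, 21 have exons that share positions with another gene at 1 TPM or more, and 19 have named pseudogenes, 59 in all. Some of the overlapping genes lie on the opposite strand, as with IK and TMCO6 at NDUFA2. RPS28, opposite NDUFA7, was at 834 to 958 TPM over the libraries. EEF1B2, opposite NDUFS1, was at 791 to 828 TPM, and FAM126B, opposite NDUFB3, at 54.4 to 74.2 TPM. Summed pseudogene levels of a member did not exceed 2.22 TPM in any library, so few reads were assigned to these copies, and reads lost by the true genes to unlisted copies were not measured.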

How the data were processed

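Total RNA of 6 PATU8988 libraries was sequenced by the authors. The submitters' processing notes list the tools fastp, HISAT, RSEM and edgeR and genome build GRCh38, without versions or roles. The authors deposited TPM values for 60831 genes in a single table, in which 1 line was empty. Depth is therefore unknown, no count model could be fitted, and precision rests on 3 libraries per group. The control columns carry the letters NC and a replicate number. The other 3 carry the letter S, which the labels do not explain, and were taken as shCLIC1 because it is the only other group, so the lower CLIC1 level there is a check of that assignment. A pair of columns with the authors' group means was not used, and no value column was left unmapped.

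TPM values were taken to log2(TPM + 1), so the fold changes of low genes are understated. Genes with a mean of at least 1 TPM (14135) were tested with limma 3.58.1 with a mean-variance trend in R 4.3.3, two-sided, with Benjamini-Hochberg adjustment over all tested genes and a threshold of 0.05. Intervals are 95% and unadjusted. The fit was tested on simulated data. Alternatives were a pseudocount of 0.1, no filter, a minimum of 5 TPM, no trend, median-ratio scaling, removal of mitochondrially encoded genes, a replicate block, and each library left out. Genes were named by a rule: genes called, the core subunits, the largest changes each way among structural subunits, assembly factors and each further list, and the highest and lowest levels. NDUFAF1, NDUFAF3, NDUFAF7, NDUFAB1, NDUFA7, NDUFA8, NDUFA10, NDUFS4, NDUFS6, NDUFB5 and NDUFV3 fall outside the rule and were named after their values were seen. Members and lists were chosen with earlier results of these data known. Lists are described by counts and medians with no test. Positions come from GENCODE release 29 (GRCh38) and promoters from RefSeq (GRCh38.p14). Motif letters were settled after an earlier search of the promoters with longer YY1 and NRF1 forms, so their shares are descriptions. Values of 1 member are not reported here, although it is included in the counts, sums and medians.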

Additional observations from a re-analysis of the deposited data

How the results depend on the processing

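The count of called members was 1 with all libraries, 0 with no filter on low values and 0 without the mean-variance trend. With 1 library left out it lay between 0 and 1, and without shCLIC1 replicate 3 the gene called was NDUFB10 in place of NDUFAF8. Over all genes the count of 246 became 61 with no filter, 0 without the trend (limma, with 2040 genes at an unadjusted p under 0.05) and 41 with the replicate block. It rose to 260 with a pseudocount of 0.1 and to 321 with a minimum of 5 TPM. With median-ratio scaling it was 295, and with mitochondrially encoded genes taken out 253. It lay between 20 and 236 with 1 library left out. With 1 library left out, the structural median of 0.02 lay between -0.0077 and 0.0281 and the assembly factor median of 0.03 between 0.01 and 0.06. Same-numbered libraries did not deviate together (correlations of 0.0396, -0.0460 and -0.0132 over genes). The labels do not say whether they were prepared as pairs, and these correlations cannot settle it. Under the replicate block NDUFAF8 kept its call (limma adjusted p = 0.0317).

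Of 466 values for 36 named genes under the alternatives, 440 kept direction and side of the threshold, 8 lost a call, 1 gained one and 17 changed sign. With mitochondrially encoded genes taken out NDUFS1 was at 0.00066. With 1 library left out the log2 fold change ranged from -0.0394 to 0.0380 for NDUFS1, from -0.0777 to 0.0075 for NDUFS3, from -0.0253 to 0.0676 for NDUFS7, from -0.101 to 0.0479 for NDUFAF6, from -0.0749 to 0.0599 for NDUFAF7, from -0.334 to 0.126 for NDUFA7, from -0.232 to 0.112 for NDUFB5, from -0.118 to 0.221 for NDUFV3 and from -0.149 to 0.0140 for MT-ND4L. The cause was not tested. Depth is unknown, so what it limits could not be measured.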
